A study of Mus musculus with 113 samples.

Results

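Mouse 8-cell (8C) embryos in which 4 nuclear receptors had been knocked down together (4KD) were compared with negative control (NC) embryos of the same experiment. The members were the 2 4KD libraries and the 2 NC libraries labelled for this experiment at 8C, 4 of the 113 libraries of the series. Every gene with a mean of at least 1 FPKM (sequenced fragments scaled to transcript length and library size) in either group was compared, which left 9605 of the 24006 genes listed in each file.

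All 4 libraries came from wild-type embryos, which by the study's methods were crosses of C57BL/6N females with PWK/PhJ males. Both groups had been injected with siRNA: the NC embryos with 20 µM of a control siRNA, and the 4KD embryos with siRNAs against *Nr5a2*, *Rarg*, *Nr1h3* and *Nr2c2* at 5 µM for each target. Each library was made from the RNA of several pooled embryos by Smart-seq2, which copies whole transcripts from very little RNA. The labels do not say whether the 2 libraries of a group came from separate days or matings, so p-values here measure spread between libraries. That spread was pooled over more libraries than these 4, including those of 4-cell (4C) embryos of the same experiment. In pooled RNA fewer cells of a kind cannot be told apart from less RNA per cell.

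Nuclear receptors are transcription factors with a zinc-finger DNA-binding domain and, in most members, a pocket for a small ligand. *Nr5a2* (also called liver receptor homolog-1) binds DNA as a monomer at an extended half-site and is known in the liver for bile acid and cholesterol genes and in the early embryo for *Pou5f1*. *Rarg* encodes a retinoic acid receptor, *Nr1h3* the oxysterol receptor LXR alpha, and *Nr2c2* the orphan receptor TR4. At 8C the embryonic genome has been active for some time, maternal transcripts are largely gone, and cells are about to compact and to choose between inner cell mass and trophectoderm.

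The 4 libraries listed between 8606 and 8764 genes at 1 FPKM or more. Read counts are not in the files; the spacing of the lowest FPKM values, compared with that of 1 library of another experiment, put the relative depth of the NC libraries at 0.519 and 0.802 and that of the 4KD libraries at 0.538 and 0.749. Replicates differed about as much as groups did. On the log2(FPKM + 1) scale, 23.7% of the genes differed by more than 1 between the 2 NC libraries. Between the 2 4KD libraries it was 19.6%. Between NC and 4KD libraries it was 22.6% and 21.0% for the same replicate number, and 32.4% and 28.0% for different numbers. The embryo genes *Pou5f1*, *Dppa3*, *Cdh1*, *Krt8*, *Krt18*, *Tead4*, *Gata3*, *Tfap2c* and the oocyte genes *Zp3* and *Gdf9*, 10 in all, passed the expression filter, which shows embryo RNA and does not test the stage. Of 14 markers of cumulus and granulosa cells 1 passed (*Amhr2*), and the list summed to 5.35 and 12.6 FPKM in NC and 5.66 and 8.28 FPKM in 4KD libraries, while *Fshr* and *Lhcgr* were listed at 0 in all 4. Sperm markers (1 of 7 passed the filter) summed to between 0 and 4.26 FPKM. Blood markers (2 of 8 passed) summed to 27.8 and 9.53 FPKM in NC and 89.6 and 32.3 FPKM in 4KD libraries, most of it *Hba-a1*, with *Ptprc* and *Alas2* at 0; the part of any of these cells in the results was not tested.

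All 4 targets were lower in both 4KD libraries than in both NC libraries. *Nr5a2* was at 27.1 and 30.3 FPKM in the NC libraries and at 3.90 and 6.91 FPKM in the 4KD libraries, which left 18.8% of the NC mean (log2 fold change -2.25, SE 0.62, unadjusted p = 0.00511, adjusted p = 0.353). *Nr1h3* was at 10.6 and 15.2 FPKM in the NC libraries and at 1.45 and 1.11 FPKM in the 4KD libraries. *Nr1h3* had a log2 fold change of -2.59 (SE 0.63, unadjusted p = 0.00260, adjusted p = 0.281). *Nr2c2* was at 4.21 and 6.71 FPKM in the NC libraries and at 0.702 and 1.56 FPKM in the 4KD libraries. *Nr2c2* had a log2 fold change of -1.60 (SE 0.51, unadjusted p = 0.0120, adjusted p = 0.416). *Rarg* kept the largest share of its transcript, 35.4% of the NC mean, at 7.31 and 17.2 FPKM in the NC libraries and at 4.27 and 4.40 FPKM in the 4KD libraries. *Rarg* had a log2 fold change of -1.20 (SE 0.56, unadjusted p = 0.0588, adjusted p = 0.634). The adjusted p-values are those of limma over the 9605 genes. No adjusted p was under 0.05 for any target, although 3 of the 4 passed the unadjusted limits used below, and *Rarg* did not. Of the 3, *Nr5a2* had p = 0.0597 without 4KD replicate 1, and *Nr2c2* had p = 0.0743 without NC replicate 2 and p = 0.0813 without 4KD replicate 1.

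The closest paralogs of the targets overlapped between the groups or stayed under the filter. *Nr1h2*, the broadly expressed LXR beta, was at 20.9 and 49.4 FPKM in the NC libraries and at 23.03 and 45.3 FPKM in the 4KD libraries. *Rarb* was at 2.26 and 8.596 FPKM in the NC libraries and at 5.67 and 4.51 FPKM in the 4KD libraries. The groups overlapped for both, with unadjusted p-values of 0.993 and 0.897. *Nr5a1*, *Rara* and *Nr2c1* did not reach 1 FPKM in any of the 4 libraries, and *Nr5a1* was listed at 0 throughout. Among 22 other nuclear receptors 7 passed the filter and 1 of these was lower at the unadjusted limits (14.3%, beside 4.54% of all genes). It was *Nr4a1*, an immediate early gene, at 2.12 and 3.90 FPKM in the NC libraries and at 0 and 0 FPKM in the 4KD libraries. *Nr4a1* had an unadjusted p of 0.0100 and an adjusted p of 0.403, with p = 0.0600 without NC replicate 2.

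Across the 9605 genes, limma (eBayes with a trend, all 8 4C and 8C libraries of the experiment in 1 fit) gave no gene (0%) that combined an adjusted p below 0.01 with a log2 fold change of 2 or more in either direction. None had an adjusted p under 0.05 either, and the smallest was 0.224. At an unadjusted p under 0.05 there were 779 genes. Of these, 436 genes, 4.54% of those tested, had a log2 fold change of -1 or lower, and 312 genes, 3.25%, had one of 1 or higher. These 2 sets are called lower and higher genes from here on, and the shares are the background for every gene group. Of the 436 lower and 312 higher genes, 121 and 73 stayed past these limits whichever of the 4 libraries was left out. Without 4KD replicate 1 there were 328 lower and 353 higher genes, and without 4KD replicate 2 there were 305 and 334, so the excess of lower genes needed both 4KD libraries. When the spread was estimated from all 24 siRNA libraries of 8C embryos, 55 genes reached an adjusted p under 0.05, of which 46 were lower and 9 higher; those other libraries are estimated to be deeper. Both 4KD libraries lay below both NC libraries for 1941 genes (20.2%) and above both for 1789 (18.6%).

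**Figure D1:**
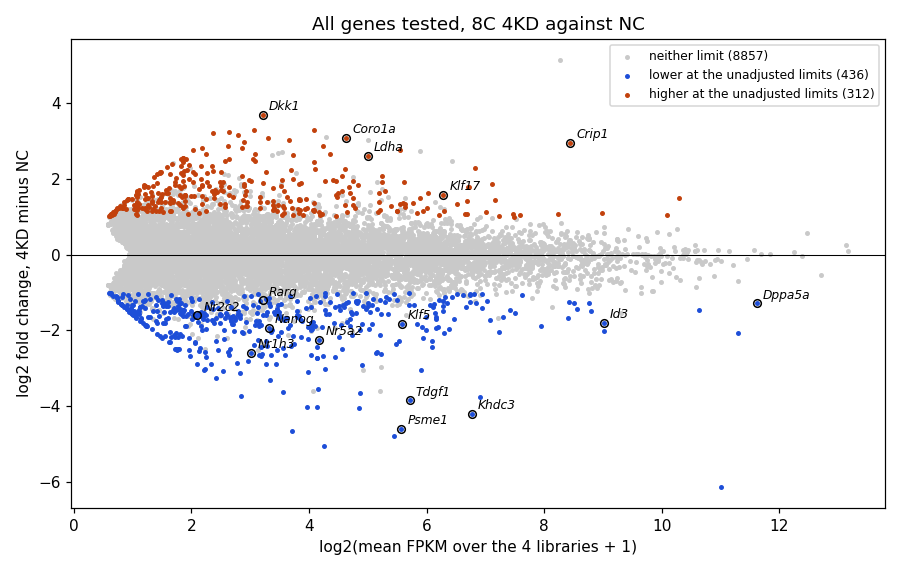
Log2 fold change (4KD minus NC, vertical axis) of the 9605 genes tested against the log2 of the mean FPKM over the 4 libraries plus 1 (horizontal axis). Blue points are the 436 lower and orange points the 312 higher genes at the unadjusted limits, and some of the genes described here are circled; *Khdc3*, *Psme1* and *Tdgf1* lie among the most strongly lower genes and *Dkk1* and *Crip1* among the higher ones.

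Most of the 15 leading lower genes had clear expression in both NC libraries and little in either 4KD library; *Snora78*, described last, did not. *Psme1*, a subunit of the PA28 proteasome activator, was at 101 and 79.2 FPKM in the NC libraries and at 3.09 and 2.42 FPKM in the 4KD libraries. *Psme1* had a log2 fold change of -4.59 (SE 0.70, unadjusted p = 9.66e-05, adjusted p = 0.236). Its partner *Psme2* stayed near or under 1 FPKM in most libraries, at 0 and 0.942 FPKM in NC against 0 and 2.18 FPKM in 4KD libraries. *Khdc3*, a member of the subcortical maternal complex, was at 117 and 297 FPKM in the NC libraries and at 8.37 and 10.04 FPKM in the 4KD libraries. *Khdc3* had a log2 fold change of -4.20 (SE 1.07, unadjusted p = 0.00322, adjusted p = 0.304), with p = 0.0569 without NC replicate 2. *Prl3b1*, which encodes placental lactogen II, was at 113 and 50.97 FPKM in the NC libraries and at 0 and 6.87 FPKM in the 4KD libraries. *Prl3b1* had a log2 fold change of -4.78 (SE 1.15, unadjusted p = 0.00234, adjusted p = 0.280), with p = 0.0535 without 4KD replicate 1. *Crip2*, which encodes a LIM domain protein, was at 260.3 and 183 FPKM in the NC libraries and at 15.2 and 15.1 FPKM in the 4KD libraries. *Crip2* had a log2 fold change of -3.77 (SE 0.81, unadjusted p = 0.00116, adjusted p = 0.236). For these 4 genes each NC library was several times above each 4KD library.

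*Tdh*, the threonine dehydrogenase of mouse pluripotent cells, was at 28.9 and 28.2 FPKM in the NC libraries and at 0.922 and 0.706 FPKM in the 4KD libraries. *Tdh* had a log2 fold change of -4.03 (SE 1.01, unadjusted p = 0.00296, adjusted p = 0.292). *Tdgf1*, the NODAL co-receptor Cripto, was at 32.8 and 162 FPKM in the NC libraries and at 1.35 and 10.3 FPKM in the 4KD libraries. *Tdgf1* had a log2 fold change of -3.85 (SE 1.16, unadjusted p = 0.00876, adjusted p = 0.388). The 2 NC libraries were far apart for *Tdgf1*, although both lay above both 4KD libraries, and the gene had p = 0.126 without NC replicate 2 and p = 0.133 without 4KD replicate 1. *S100a3*, which encodes a calcium-binding protein, was at 63.9 and 41.4 FPKM in the NC libraries and at 6.45 and 1.30 FPKM in the 4KD libraries. *S100a3* had a log2 fold change of -3.66 (SE 0.65, unadjusted p = 2.82e-04, adjusted p = 0.236). *Arhgdig* was at 27.97 and 35.1 FPKM in the NC libraries and at 0.958 and 3.00 FPKM in the 4KD libraries. *Arhgdig* had a log2 fold change of -3.53 (SE 0.70, unadjusted p = 6.13e-04, adjusted p = 0.236). *Crygs*, a lens crystallin gene, was at 69.5 and 37.2 FPKM in the NC libraries and at 3.25 and 1.31 FPKM in the 4KD libraries; it had unadjusted p = 0.0151, adjusted p = 0.438, and unadjusted p-values between 0.0658 and 0.129 when 1 library was left out.

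Several leading lower genes were listed at 0 in 4KD libraries. *1500009L16Rik*, an uncharacterised gene, was at 19.1 and 53.8 FPKM in the NC libraries and at 0 and 0 FPKM in the 4KD libraries. *1500009L16Rik* had an unadjusted p of 4.51e-04 and an adjusted p of 0.236. *Abhd11os* was at 27.6 and 20.8 FPKM in the NC libraries and at 0 and 0 FPKM in the 4KD libraries. *Abhd11os* had an unadjusted p of 4.15e-04 and an adjusted p of 0.236. It is named as the opposite-strand transcript of *Abhd11*, which was at 52.8 and 28.8 FPKM in NC against 26.4 and 21.5 FPKM in 4KD libraries. Smart-seq2 keeps no strand, so reads of such partners cannot be told apart where they overlap. Among the leading genes of both directions, the spans of *Psme1*, *Tdh*, *Defb42*, *Snora78*, *Arid3c*, *Pxt1* and *Nmnat1* also overlap a gene on the other strand. *Defb42*, a beta-defensin gene, was at 10.6 and 14.2 FPKM in the NC libraries and at 0 and 0 FPKM in the 4KD libraries. *Defb42* had an unadjusted p of 0.00625 and an adjusted p of 0.374, with p = 0.0614 without NC replicate 2 and p = 0.0588 without 4KD replicate 1 and p = 0.0582 without 4KD replicate 2. *Rhox9*, a homeobox gene of the X-linked Rhox cluster, was at 22.8 and 40.7 FPKM in the NC libraries and at 0 and 2.80 FPKM in the 4KD libraries. *Rhox9* had a log2 fold change of -4.01 (SE 1.04, unadjusted p = 0.00365, adjusted p = 0.316), with p = 0.0526 without NC replicate 2 and p = 0.0717 without 4KD replicate 1. *Gm6880*, a predicted gene, was at 24.6 and 16.5 FPKM in the NC libraries and at 1.97 and 0 FPKM in the 4KD libraries. *Gm6880* had a log2 fold change of -3.62 (SE 0.77, unadjusted p = 0.00107, adjusted p = 0.236).

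The last of the 15 leading lower genes, *Snora78*, is a small nucleolar RNA inside *Snhg9* and was at 1955 and 4501 FPKM in the NC libraries and at 1821 and 0 FPKM in the 4KD libraries. *Snora78* had a log2 fold change of -6.12 (SE 2.56, unadjusted p = 0.0401, adjusted p = 0.583). Its largest 4KD value nearly met its smallest NC value, FPKM of such short transcripts are uncertain, and the gene had p = 0.123 without NC replicate 1 and p = 0.202 without NC replicate 2 and p = 0.270 without 4KD replicate 2.

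**Figure D2:**
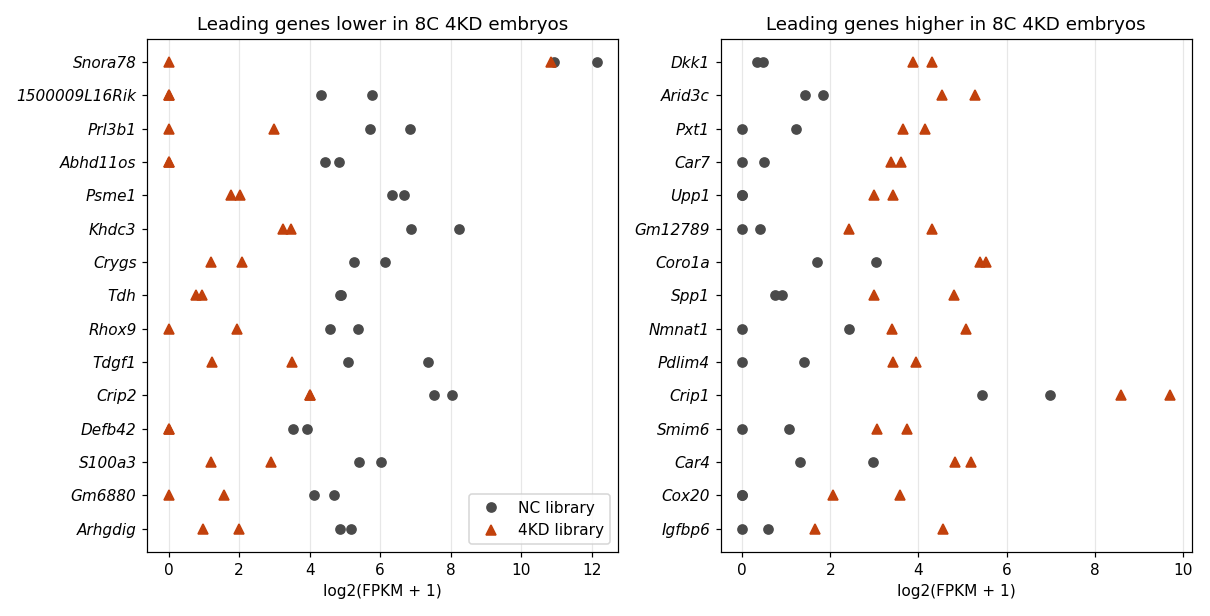
Level of the 15 leading lower genes (left) and the 15 leading higher genes (right) in each library, as log2(FPKM + 1) on the horizontal axis. Circles are the 2 NC libraries and triangles the 2 4KD libraries; by the rule that chose them, the 2 groups do not overlap for any gene shown.

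Positions of the leading lower genes, in mm9 with the GENCODE vM1 annotation, were spread over the genome. *Psme1* spans chr14:56196960-56200366 on the forward strand, *Prl3b1* chr13:27334299-27341548 on the forward strand and *Tdgf1* chr9:110842114-110848662 on the reverse strand. *Crip2* (chr12:114378447-114383715) and *Crip1* (chr12:114390223-114392088) are neighbours on the forward strand, and were on opposite sides of the comparison: *Crip2* was among the leading lower genes and *Crip1*, which encodes a related LIM protein, among the leading higher ones.

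NR5A2 is known to prefer the extended half-site TCAAGGTCA or TCAAGGCCA, and these 9 letters were searched on both strands of the RefSeq promoters of build GRCm38.p6, which run from 250 bases before to 50 bases after each start. Among the 15 leading lower genes 11 had a promoter in that table and 2 of these held a match, *Khdc3* and *Defb42*; none of the 15 leading higher genes did. Of all 27025 genes in the table, 1.15% held one. Under 80% of the leading lower genes, of all lower genes and of all higher genes had a promoter in the table, so these counts compare nothing and only say where the matches are. The 2 stretches are shown because they are the matches among the leading genes, each read on the strand of its gene with the match, which lies on the other strand, in capitals.
*Khdc3*, chr9:73102150-73102238, forward strand: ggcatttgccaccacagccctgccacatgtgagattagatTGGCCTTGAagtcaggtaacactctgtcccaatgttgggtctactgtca
*Defb42*, chr14:63046832-63046920, forward strand: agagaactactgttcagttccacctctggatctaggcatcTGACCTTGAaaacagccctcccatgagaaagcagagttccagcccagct
The match begins 208 bases before the start of *Khdc3* and 119 bases before that of *Defb42*. A match describes the letters in this window and does not show that NR5A2 is bound there.

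The leading higher genes were mostly near 0 in the NC libraries. *Dkk1*, a secreted inhibitor of WNT signalling, was at 0.395 and 0.257 FPKM in the NC libraries and at 13.6 and 18.8 FPKM in the 4KD libraries. *Dkk1* had a log2 fold change of 3.68 (SE 0.47, unadjusted p = 2.34e-05, adjusted p = 0.224), and it had the smallest unadjusted p of the genes named here. *Arid3c*, an ARID-family DNA-binding protein gene, was at 1.67 and 2.54 FPKM in the NC libraries and at 37.9 and 22.1 FPKM in the 4KD libraries. *Arid3c* had a log2 fold change of 3.29 (SE 1.00, unadjusted p = 0.00912, adjusted p = 0.391), with p = 0.0711 without NC replicate 1 and p = 0.0522 without NC replicate 2 and p = 0.0972 without 4KD replicate 1. *Coro1a*, an actin-binding coronin, was at 2.23 and 7.26 FPKM in the NC libraries and at 40.8 and 45.03 FPKM in the 4KD libraries. *Coro1a* had a log2 fold change of 3.09 (SE 0.53, unadjusted p = 2.28e-04, adjusted p = 0.236). *Crip1* was the most abundant of the leading higher genes, at 125 and 42.2 FPKM in the NC libraries and at 837 and 388 FPKM in the 4KD libraries. *Crip1* had a log2 fold change of 2.95 (SE 0.58, unadjusted p = 5.92e-04, adjusted p = 0.236). *Spp1*, which encodes osteopontin, was at 0.669 and 0.875 FPKM in the NC libraries and at 26.96 and 6.93 FPKM in the 4KD libraries. *Spp1* had a log2 fold change of 3.07 (SE 0.77, unadjusted p = 0.00307, adjusted p = 0.295). A pair of carbonic anhydrases was among them: *Car4* was at 1.49 and 6.83 FPKM in the NC libraries and at 27.5 and 35.4 FPKM in the 4KD libraries. *Car4* had a log2 fold change of 2.87 (SE 0.61, unadjusted p = 0.00109, adjusted p = 0.236). *Car7* was at 0 and 0.406 FPKM in the NC libraries and at 11.1 and 9.42 FPKM in the 4KD libraries. *Car7* had a log2 fold change of 3.24 (SE 0.66, unadjusted p = 7.41e-04, adjusted p = 0.236).

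*Upp1*, the uridine phosphorylase, was listed at 0 in both NC libraries and at 9.71 and 6.94 FPKM in the 4KD libraries. *Upp1* had an unadjusted p of 0.00275 and an adjusted p of 0.289. *Cox20*, an assembly factor of cytochrome c oxidase, was likewise at 0 in both NC libraries and at 10.99 and 3.19 FPKM in the 4KD libraries. *Cox20* had an unadjusted p of 0.00600 and an adjusted p of 0.374, with p = 0.0748 without 4KD replicate 1. *Pxt1*, a testis-expressed gene, was at 0 and 1.34 FPKM in the NC libraries and at 16.6 and 11.5 FPKM in the 4KD libraries. *Pxt1* had a log2 fold change of 3.28 (SE 0.70, unadjusted p = 0.00106, adjusted p = 0.236). *Nmnat1*, an enzyme of NAD synthesis, was at 0 and 4.38 FPKM in the NC libraries and at 9.57 and 32.6 FPKM in the 4KD libraries. *Nmnat1* had a log2 fold change of 3.02 (SE 0.84, unadjusted p = 0.00543, adjusted p = 0.364), with p = 0.0668 without NC replicate 1 and p = 0.0905 without 4KD replicate 2. *Pdlim4*, a PDZ and LIM protein gene, was at 0 and 1.65 FPKM in the NC libraries and at 14.4 and 9.66 FPKM in the 4KD libraries. *Pdlim4* had a log2 fold change of 2.98 (unadjusted p = 8.94e-04). *Smim6* was at 1.08 and 0 FPKM in the NC libraries and at 12.4 and 7.29 FPKM in the 4KD libraries. *Smim6* had a log2 fold change of 2.87 (unadjusted p = 0.00115). *Gm12789* was at 0.326 and 0 FPKM in the NC libraries and at 4.38 and 18.9 FPKM in the 4KD libraries. *Gm12789* had a log2 fold change of 3.17 (unadjusted p = 0.00536). *Igfbp6*, a binding protein of insulin-like growth factors, was at 0 and 0.493 FPKM in the NC libraries and at 2.17 and 22.4 FPKM in the 4KD libraries. *Igfbp6* had a log2 fold change of 2.82 (unadjusted p = 0.00774). *Gm12789* had p = 0.0538 without NC replicate 2 and p = 0.0913 without 4KD replicate 2, and *Igfbp6* had p = 0.0674 without NC replicate 1.

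Pluripotency genes held 6 lower and no higher genes among 22 tested members, 27.3% lower beside 4.54% over all genes tested, and 15 of the 22 had a negative log2 fold change (median -0.25, beside 0.00 over all genes). *Nanog*, a core factor of the inner cell mass, was at 10.8 and 18.9 FPKM in the NC libraries and at 3.83 and 2.34 FPKM in the 4KD libraries. *Nanog* had a log2 fold change of -1.93 (SE 0.50, unadjusted p = 0.00378, adjusted p = 0.319) and stayed past the limits without any 1 library. *Klf5*, a factor of both early lineages, was at 71.8 and 75.6 FPKM in the NC libraries and at 19.9 and 20.3 FPKM in the 4KD libraries. *Klf5* had a log2 fold change of -1.82 (SE 0.52, unadjusted p = 0.00641, adjusted p = 0.374), with close agreement of the libraries within each group. *Klf4*, another reprogramming factor, was at 17.4 and 2.19 FPKM in the NC libraries and at 1.08 and 1.23 FPKM in the 4KD libraries. *Klf4* had a log2 fold change of -1.83 (SE 0.78, unadjusted p = 0.0415, adjusted p = 0.589), and it rested on NC replicate 1, since its p was 0.383 without that library. *Dppa5a*, an RNA-binding protein gene and among the most abundant transcripts of the embryo, was at 5223 and 3689 FPKM in the NC libraries and at 2031 and 1594 FPKM in the 4KD libraries. *Dppa5a* had a log2 fold change of -1.29 (SE 0.51, unadjusted p = 0.0308, adjusted p = 0.533). *Tfcp2l1*, a factor of naive pluripotency, was at 9.25 and 17.97 FPKM in the NC libraries and at 4.599 and 3.27 FPKM in the 4KD libraries. *Tfcp2l1* had a log2 fold change of -1.51 (SE 0.67, unadjusted p = 0.0492, adjusted p = 0.610). When 1 library was left out, the p-values were between 0.0697 and 0.193 for *Dppa5a* and between 0.0572 and 0.251 for *Tfcp2l1*. The sixth, *Tdgf1*, was described above.

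Other pluripotency genes did not pass the limits. *Pou5f1*, the central pluripotency factor, was at 88.5 and 155 FPKM in the NC libraries and at 38.5 and 93.3 FPKM in the 4KD libraries. *Pou5f1* had a log2 fold change of -0.95 (SE 0.55, unadjusted p = 0.119, adjusted p = 0.744), and the 2 groups overlapped. *Sall4* was at 94.97 and 58.5 FPKM in NC against 71.97 and 52.1 FPKM in 4KD libraries, *Esrrb* at 10.95 and 4.26 FPKM in NC against 11.8 and 7.65 FPKM in 4KD libraries and *Tbx3* at 10.6 and 18.4 FPKM in NC against 6.61 and 10.8 FPKM in 4KD libraries, with unadjusted p-values of 0.520, 0.568 and 0.349. *Sox2* stayed under 1 FPKM in all 4 libraries. The highest member, *Dppa3*, a maternal factor that protects DNA methylation, was at 4274 and 4850.5 FPKM in the NC libraries and at 5997 and 7673 FPKM in the 4KD libraries. *Dppa3* had a log2 fold change of 0.58 (unadjusted p = 0.0833), on the higher side in both 4KD libraries. Among 10 tested Kruppel-like factors, 3 were lower (30%, beside 4.54% of all genes) and 1 higher (10%, beside 3.25%). Of the 3, *Klf4* and *Klf5* were already counted among the pluripotency genes, so the lists are not independent. The remaining lower one, *Klf13*, was at 11.7 and 18.00 FPKM in the NC libraries and at 1.23 and 1.66 FPKM in the 4KD libraries. *Klf13* had a log2 fold change of -2.67 (SE 0.68, unadjusted p = 0.00337, adjusted p = 0.310). *Klf17* was at 35.7 and 38.6 FPKM in the NC libraries and at 87.5 and 145 FPKM in the 4KD libraries. *Klf17* had a log2 fold change of 1.58 (SE 0.39, unadjusted p = 0.00290, adjusted p = 0.292), and both stayed past the limits without any 1 library.

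Among trophectoderm genes 2 of 11 tested were lower (18.2%, beside 4.54% of all genes) and none higher (median -0.65). *Hand1*, a factor of the trophoblast, was at 24.8 and 38.5 FPKM in the NC libraries and at 5.48 and 2.79 FPKM in the 4KD libraries. *Hand1* had a log2 fold change of -2.69 (SE 0.90, unadjusted p = 0.0145, adjusted p = 0.437), with p-values between 0.0529 and 0.127 when 1 library was left out. *Tfap2c*, an AP-2 factor of the trophectoderm, was at 44.4 and 62.8 FPKM in the NC libraries and at 25.3 and 22.3 FPKM in the 4KD libraries. *Tfap2c* had a log2 fold change of -1.12 (SE 0.37, unadjusted p = 0.0143, adjusted p = 0.437), with p = 0.0581 without NC replicate 2. *Gata3* was at 3.18 and 5.34 FPKM in NC against 1.78 and 2.89 FPKM in 4KD libraries and *Tead4* at 33.9 and 51.3 FPKM in NC against 34.9 and 23.1 FPKM in 4KD libraries, with unadjusted p-values of 0.265 and 0.266. The keratin genes did not pass the limits either: *Krt8* was at 2.52 and 28.3 FPKM in NC against 14.02 and 39.1 FPKM in 4KD libraries and *Krt18* at 8.85 and 35.6 FPKM in NC against 16.98 and 45.8 FPKM in 4KD libraries, the groups overlapping for both (unadjusted p = 0.243 and 0.488).

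No primitive endoderm or FGF pathway gene of 12 tested was lower or higher. *Gata6*, the primitive endoderm factor, was at 54.7 and 22.5 FPKM in the NC libraries and at 26.9 and 9.31 FPKM in the 4KD libraries, with overlapping groups and an unadjusted p of 0.158. *Fgfr1* was at 9.07 and 1.70 FPKM in NC against 1.84 and 1.64 FPKM in 4KD libraries and *Fgfr2* at 10.9 and 6.53 FPKM in NC against 8.84 and 6.18 FPKM in 4KD libraries (unadjusted p = 0.191 and 0.771). The 2 NC libraries differed as widely as the groups did for *Gata6*, *Fgfr1* and *Fgfr2*. The fit, which did not pair libraries by replicate number, did not separate the groups. For each of these genes every 4KD library was below the NC library of the same number. The labels do not say whether that number marks a shared day.

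Genes of compaction, junctions and polarity held 4 lower and no higher members among 21 tested (median -0.15). The lower share was 19.05%, beside 4.54% of all genes. *Cldn4*, a claudin of tight junctions, was at 63.3 and 23.2 FPKM in the NC libraries and at 7.70 and 8.48 FPKM in the 4KD libraries. *Cldn4* had a log2 fold change of -2.12 (SE 0.54, unadjusted p = 0.00346, adjusted p = 0.310) and stayed past the limits without any 1 library. *Ocln*, which encodes occludin, was at 9.62 and 21.7 FPKM in the NC libraries and at 2.30 and 3.69 FPKM in the 4KD libraries. *Ocln* had a log2 fold change of -1.98 (SE 0.57, unadjusted p = 0.00673, adjusted p = 0.374), with p = 0.0699 without NC replicate 2 and p = 0.0609 without 4KD replicate 1. *Tjp1*, the scaffold ZO-1, was at 4.63 and 3.06 FPKM in the NC libraries and at 1.48 and 0.418 FPKM in the 4KD libraries. *Tjp1* had a log2 fold change of -1.35 (unadjusted p = 0.0287), with p = 0.112 without NC replicate 1 and p = 0.146 without 4KD replicate 2. *Prkcz*, an atypical protein kinase C of the apical domain, was at 1.55 and 5.90 FPKM in the NC libraries and at 0.371 and 0.590 FPKM in the 4KD libraries. *Prkcz* had a log2 fold change of -1.51 (unadjusted p = 0.0454), with p = 0.284 without NC replicate 2 and p = 0.158 without 4KD replicate 1 and p = 0.112 without 4KD replicate 2. Of the adherens junction genes, *Cdh1* was at 12.3 and 14.3 FPKM in NC against 9.78 and 11.5 FPKM in 4KD libraries and *Ctnnb1* at 31.2 and 35.9 FPKM in NC against 51.5 and 54.3 FPKM in 4KD libraries, with unadjusted p-values of 0.615 and 0.268.

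In the Hippo pathway, which controls the first lineage choice, 2 of 17 tested genes were lower (11.8%, beside 4.54% of all genes). In the other direction 1 was higher (5.88%, beside 3.25%). *Lats2*, a kinase that restrains YAP, was at 6.65 and 7.58 FPKM in the NC libraries and at 2.06 and 1.13 FPKM in the 4KD libraries. *Lats2* had a log2 fold change of -1.66 (SE 0.52, unadjusted p = 0.0108, adjusted p = 0.407), with p = 0.0698 without 4KD replicate 2. *Nf2*, which encodes the upstream scaffold merlin, was at 10.5 and 15.8 FPKM in the NC libraries and at 3.53 and 6.14 FPKM in the 4KD libraries. *Nf2* had a log2 fold change of -1.29 (unadjusted p = 0.0372), with p-values between 0.0504 and 0.192 when 1 library was left out. *Wwtr1*, the YAP paralog TAZ, was on the other side, at 24.9 and 18.9 FPKM in the NC libraries and at 49.2 and 50.99 FPKM in the 4KD libraries. *Wwtr1* had a log2 fold change of 1.17 (SE 0.40, unadjusted p = 0.0168, adjusted p = 0.449), with p = 0.0651 without NC replicate 2 and p = 0.0525 without 4KD replicate 2. *Yap1* itself was at 12.2 and 7.91 FPKM in NC against 8.33 and 4.42 FPKM in 4KD libraries (unadjusted p = 0.232).

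Of the Id and BMP-SMAD genes 2 of 11 tested were lower (18.2%, beside 4.54% of all genes). *Id3*, an inhibitor of helix-loop-helix factors, was at 767 and 814 FPKM in the NC libraries and at 331 and 155 FPKM in the 4KD libraries. *Id3* had a log2 fold change of -1.80 (SE 0.71, unadjusted p = 0.0312, adjusted p = 0.536), and had p-values between 0.0544 and 0.246 when 1 library was left out. *Smad7*, an inhibitory SMAD, was at 3.00 and 1.46 FPKM in the NC libraries and at 0 and 0.136 FPKM in the 4KD libraries. *Smad7* had a log2 fold change of -1.56 (unadjusted p = 0.0210), with p = 0.0981 without NC replicate 1 and p = 0.0731 without 4KD replicate 1 and p = 0.0502 without 4KD replicate 2. Of 8 tested genes of blastocoel fluid transport 1 was lower (12.5%, beside 4.54% of all genes) and 1 higher (12.5%, beside 3.25%). The water channel *Aqp3* was lower, at 10.4 and 18.3 FPKM in the NC libraries and at 0.497 and 7.62 FPKM in the 4KD libraries. *Aqp3* had a log2 fold change of -2.04 (unadjusted p = 0.0368), with p = 0.0783 without NC replicate 1 and p = 0.206 without NC replicate 2 and p = 0.371 without 4KD replicate 1. *Aqp11*, a related channel, was higher, at 27.4 and 19.6 FPKM in the NC libraries and at 71.4 and 46.02 FPKM in the 4KD libraries. *Aqp11* had a log2 fold change of 1.27 (unadjusted p = 0.0253), with p = 0.130 without NC replicate 2 and p = 0.156 without 4KD replicate 1.

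Known targets of 3 of the receptors were looked up; no list was made for *Nr2c2*. Only *Scarb1* of 15 NR5A2 target genes of liver and ovary passed the filter, at 1.04 and 2.39 FPKM in NC against 0.703 and 1.07 FPKM in 4KD libraries (unadjusted p = 0.566). None of 13 tested (of 17 listed) LXR target and lipogenesis genes and none of 4 tested retinoic acid genes was lower or higher. The desaturase *Scd1* was at 10.5 and 6.39 FPKM in NC against 4.27 and 1.78 FPKM in 4KD libraries (unadjusted p = 0.0723). The fatty acid synthase *Fasn* was at 4.71 and 3.58 FPKM in NC against 8.57 and 10.1 FPKM in 4KD libraries (unadjusted p = 0.0695). Among 19 tested genes of cholesterol synthesis and uptake, 2 were lower (10.5%, beside 4.54% of all genes) and none higher. The sterol methyl oxidase *Msmo1* was at 87.5 and 89.4 FPKM in the NC libraries and at 26.8 and 21.6 FPKM in the 4KD libraries. *Msmo1* had a log2 fold change of -1.84 (SE 0.38, unadjusted p = 8.63e-04, adjusted p = 0.236). The squalene synthase *Fdft1* was at 184 and 101 FPKM in the NC libraries and at 85.6 and 31.6 FPKM in the 4KD libraries. *Fdft1* had a log2 fold change of -1.37 (unadjusted p = 0.0352), with p = 0.222 without NC replicate 1 and p = 0.305 without 4KD replicate 2.

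Large housekeeping groups held few or no lower and higher genes. None of 74 tested cytosolic ribosomal protein genes and none of 38 tested proteasome subunits was lower or higher, with medians of -0.03 and -0.04; each median changed sign under 3 of 14 alternative settings. Of 73 oxidative phosphorylation subunits, 2 were lower (2.74%, under the 4.54% of all genes). *Ndufs6*, a subunit of complex I, was at 501 and 283 FPKM in the NC libraries and at 119 and 85.4 FPKM in the 4KD libraries. *Ndufs6* had a log2 fold change of -1.89 (unadjusted p = 0.0135), with p = 0.118 without NC replicate 1 and p = 0.0541 without 4KD replicate 1 and p = 0.112 without 4KD replicate 2. *Ndufa8*, another, was at 122 and 92.9 FPKM in the NC libraries and at 45.7 and 22.03 FPKM in the 4KD libraries. *Ndufa8* had a log2 fold change of -1.71 (unadjusted p = 0.0196), with p = 0.112 without NC replicate 1 and p = 0.0610 without NC replicate 2 and p = 0.171 without 4KD replicate 2. In glycolysis, pyruvate and lactate use, 2 of 20 tested genes were higher (10%, beside 3.25% of all genes) and 1 was lower (5%, beside 4.54%). *Ldha*, the lactate dehydrogenase subunit, was at 4.57 and 10.8 FPKM in the NC libraries and at 29.8 and 79.03 FPKM in the 4KD libraries. *Ldha* had a log2 fold change of 2.61 (SE 0.56, unadjusted p = 0.00114, adjusted p = 0.236) and stayed past the limits without any 1 library. *Hk1*, a hexokinase, was at 7.25 and 16.6 FPKM in the NC libraries and at 0.979 and 5.54 FPKM in the 4KD libraries. *Hk1* had a log2 fold change of -1.74 (unadjusted p = 0.0399), with p = 0.248 without NC replicate 2 and p = 0.330 without 4KD replicate 1. The phosphofructokinase *Pfkm* was at 0 and 0 FPKM in the NC libraries and at 0.880 and 1.96 FPKM in the 4KD libraries. *Pfkm* had an unadjusted p of 0.0270 and an adjusted p of 0.514, with no test under the filter without 4KD replicate 2.

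Cell cycle genes held 3 lower and no higher members among 19 tested (15.8% lower, beside 4.54% of all genes). The mitotic kinase *Cdk1* was at 157 and 194 FPKM in the NC libraries and at 85.4 and 50.4 FPKM in the 4KD libraries. *Cdk1* had a log2 fold change of -1.40 (SE 0.47, unadjusted p = 0.0157, adjusted p = 0.442), with p = 0.0902 without NC replicate 2 and p = 0.131 without 4KD replicate 2. Cyclin E1, *Ccne1*, was at 121 and 211 FPKM in the NC libraries and at 67.2 and 89.5 FPKM in the 4KD libraries. *Ccne1* had a log2 fold change of -1.04 (unadjusted p = 0.0234), with p = 0.131 without NC replicate 2 and p = 0.113 without 4KD replicate 1. The phosphatase gene *Cdc25b* was at 5.66 and 3.04 FPKM in the NC libraries and at 0 and 0.411 FPKM in the 4KD libraries. *Cdc25b* had a log2 fold change of -2.13 (unadjusted p = 0.0106), with p = 0.0749 without NC replicate 1 and p = 0.0793 without 4KD replicate 1. *Ccnb1*, the mitotic partner of *Cdk1*, was at 270.5 and 281 FPKM in NC against 358 and 399 FPKM in 4KD libraries (unadjusted p = 0.161). None of 16 tested p53 response genes, 16 tested heat shock genes or 13 tested DNA methylation and demethylation genes was lower or higher. In the RNA sensing and interferon list 2 of 12 tested genes were higher (16.7%, beside 3.25% of all genes). Both encode membrane proteins of the similar Ifitm family. *Ifitm1* was at 3.44 and 15.8 FPKM in the NC libraries and at 36.7 and 28.3 FPKM in the 4KD libraries. *Ifitm1* had a log2 fold change of 1.95 (unadjusted p = 0.00977), with p = 0.0708 without NC replicate 1 and p = 0.0788 without 4KD replicate 1. *Ifitm2* was at 226 and 166 FPKM in the NC libraries and at 414 and 398 FPKM in the 4KD libraries. *Ifitm2* had a log2 fold change of 1.06 (unadjusted p = 0.0412), with p-values between 0.0606 and 0.185 when 1 library was left out. The RNA sensors *Ifih1* and *Ddx58* stayed under 1 FPKM in all 4 libraries.

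**Figure D3:**
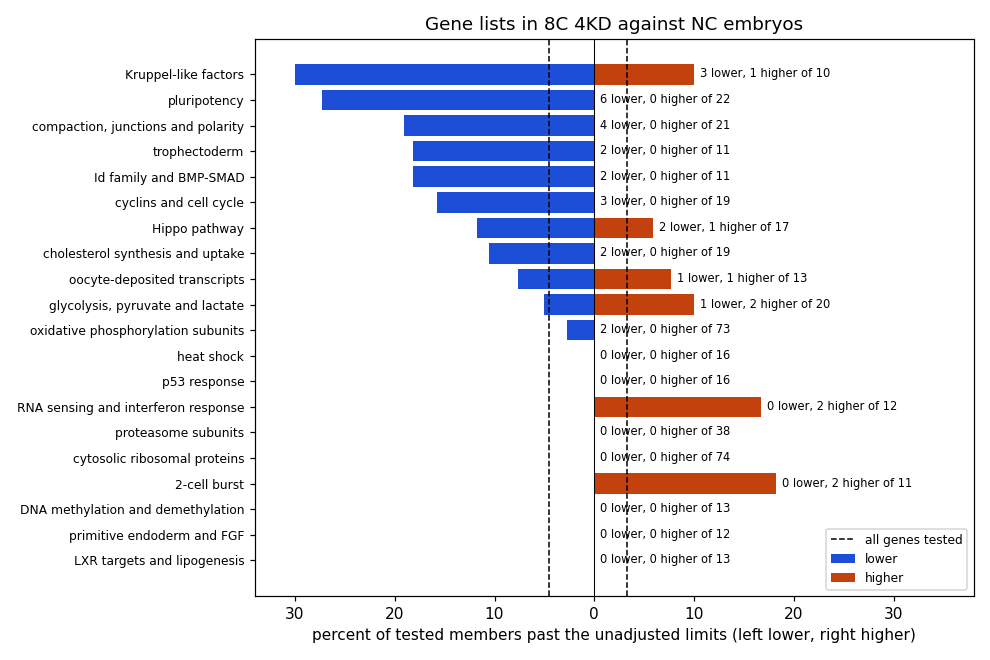
Percent of the tested members of each gene list that were lower (blue, to the left) or higher (orange, to the right) at the unadjusted limits; the lists of pathways, lineages and processes with at least 10 tested members are drawn, with their counts, and the study's stage lists are not. Dashed lines mark all genes tested, at 4.54% lower and 3.25% higher. Of the lists drawn, the Kruppel-like and pluripotency ones reach furthest to the left, and both count the lower genes *Klf4* and *Klf5*.

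Genes of earlier stages were on both sides of the comparison. The 2-cell burst is a transient programme at genome activation. Of 11 tested genes of it, 2 were higher (18.2%, beside 3.25% of all genes) and none lower (median 0.40). *Tdpoz4* was at 0.906 and 1.19 FPKM in the NC libraries and at 6.51 and 21.3 FPKM in the 4KD libraries. *Tdpoz4* had a log2 fold change of 2.66 (SE 0.57, unadjusted p = 0.00111, adjusted p = 0.236). *Tcstv1* was at 0 and 2.51 FPKM in the NC libraries and at 4.85 and 6.72 FPKM in the 4KD libraries. *Tcstv1* had a log2 fold change of 1.84 (unadjusted p = 0.0219), with p = 0.196 without NC replicate 1 and p = 0.0731 without 4KD replicate 1 and p = 0.131 without 4KD replicate 2. Both have near-identical copies in the genome, between which reads may have been split. The Zscan4 genes stayed near 0, the highest value being 3.45 FPKM for *Zscan4d* in 4KD replicate 1. In the subcortical maternal complex *Khdc3* was the 1 lower gene of 5 tested (20%, beside 4.54% of all genes). *Padi6* was at 24.3 and 12.3 FPKM in NC against 13.01 and 10.7 FPKM in 4KD libraries (unadjusted p = 0.289). Despite its list, *Khdc3* was higher at 8C than at 2C in the NC pools of the other experiments. Its means were 4.51 FPKM at 2C and 208 FPKM at 8C. It is among the gained genes of the next paragraph. Of 13 tested oocyte transcripts 1 was lower (7.69%, beside 4.54% of all genes) and 1 higher (7.69%, beside 3.25%). *Oosp1* was lower, at 16.3 and 14.9 FPKM in the NC libraries and at 6.00 and 0 FPKM in the 4KD libraries. *Oosp1* had a log2 fold change of -2.65 (unadjusted p = 0.0286), with p = 0.126 without NC replicate 1 and p = 0.120 without NC replicate 2 and p = 0.314 without 4KD replicate 2. The meiotic kinase gene *Mos* was higher, at 0 in both NC libraries and at 1.25 and 4.35 FPKM in the 4KD libraries. *Mos* had an unadjusted p of 0.0229 and an adjusted p of 0.481, with p = 0.0777 without NC replicate 1 and p = 0.0805 without NC replicate 2 and p = 0.150 without 4KD replicate 2. *Obox6*, the most abundant of 5 Obox homeobox genes here, was at 1120.4 and 1094 FPKM in NC against 1224 and 1303 FPKM in 4KD libraries (unadjusted p = 0.633). *Obox3* was at 0 and 0 FPKM in NC against 5.00 and 3.84 FPKM in 4KD libraries (unadjusted p = 0.124).

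The same contrast was read over genes gained or lost between 2C and 8C in NC embryos, all injected with control siRNA. The 2C and 8C pools came from separate experiments with different doses of that siRNA. Stage therefore cannot be told apart from experiment and dose in these sets. Gained and lost genes were taken from NC pools of the other experiments only (2C against 8C, limma's adjusted p under 0.05, a log2 fold change of 2 or more in either direction and a mean of at least 5 FPKM), so that no library of the 4KD experiment chose them. Of 1008 gained genes, 107 were lower in 8C 4KD embryos (10.6%, beside 4.54% of all genes tested) and 12 were higher (1.19%, beside 3.25%), with a median log2 fold change of -0.24. These 107 were 24.5% of the 436 lower genes. The lost genes showed the opposite. Of 1196 lost genes, 725 reached 1 FPKM in an 8C group of the 4KD experiment; of these, 61 were higher (8.41%, beside 3.25%) and 10 lower (1.38%), with a median of 0.20. The other 471 stayed below the filter, and a lost gene could pass it by being high in 4KD embryos alone, so the second count describes the genes that passed. The 61 were 19.6% of the 312 higher genes.

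Examples of both sets follow, with the 2C and 8C means of the other NC pools first. *Vnn1*, a pantetheinase, had means of 0.0975 FPKM at 2C and 112 FPKM at 8C, and in the 4KD experiment it was at 135 and 94.2 FPKM in the NC libraries and at 20.9 and 19.2 FPKM in the 4KD libraries. *Vnn1* had a log2 fold change of -2.44 (SE 0.48, unadjusted p = 6.02e-04, adjusted p = 0.236). *Vpreb3*, a gene of the B cell receptor precursor, had means of 0.809 and 65.05 FPKM, and was at 108 and 105 FPKM in the NC libraries and at 10.5 and 13.9 FPKM in the 4KD libraries. *Idh1*, the cytosolic isocitrate dehydrogenase, had means of 6.75 and 64.03 FPKM, and was at 92.05 and 58.9 FPKM in the NC libraries and at 13.1 and 15.96 FPKM in the 4KD libraries. All 3 were gained in NC pools and far lower in both 4KD libraries. Among lost genes, *Brdt*, a testis bromodomain protein gene, had means of 189.9 FPKM at 2C and 7.24 FPKM at 8C, and was at 6.67 and 3.51 FPKM in the NC libraries and at 27.3 and 27.4 FPKM in the 4KD libraries in 8C embryos of the 4KD experiment. *Arg2*, the mitochondrial arginase, had means of 131 and 16.6 FPKM and was at 10.4 and 8.78 FPKM in the NC libraries and at 26.8 and 57.8 FPKM in the 4KD libraries. *Bpgm*, an enzyme of red cell glycolysis, had means of 142 and 4.49 FPKM and was at 4.32 and 5.62 FPKM in the NC libraries and at 14.5 and 28.7 FPKM in the 4KD libraries. The 4KD levels of these 3 lay above both NC libraries of their experiment and below the 2C mean. These 6 examples were chosen after their values were seen.

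**Figure D4:**
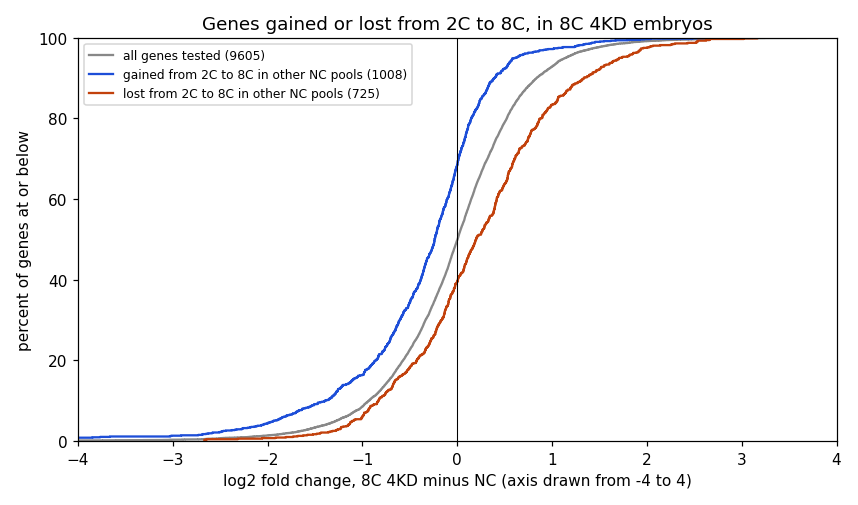
Cumulative percent of genes (vertical axis) by log2 fold change in 8C 4KD against NC embryos (horizontal axis, drawn from -4 to 4), for all 9605 genes tested (grey), 1008 genes gained from 2C to 8C in other NC pools (blue) and 725 tested genes lost from 2C to 8C (orange). The blue line lies to the left of the grey one, with a median of -0.24, and the orange line to its right, with a median of 0.20.

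Stage-specific genes that the study named from reference data were counted too. Over all genes tested, 4.54% were lower and 3.25% higher. Of 15 tested 4C genes, 5 (33.3%) were lower (*Prl3b1*, *Crygs*, *S100a3*, *Atg16l2* and *Foxa1*) and none higher. Of 45 tested 8C genes, 4 (8.89%) were lower (*1500009L16Rik*, *Hsd17b1*, *Aqp3* and *Chmp4c*) and 1 (2.22%) was higher (*Car4*). Of 29 tested early 2C genes, 6 were higher (20.7%) and none lower. Of 506 tested late 2C genes, 32 were lower (6.32%) and 24 higher (4.74%). Of 42 tested zygote genes, 3 were lower (7.14%) and 4 higher (9.52%), and of 39 tested inner cell mass genes, 3 were lower and 3 higher (7.69% each).

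The lower and higher genes were then looked up in the other siRNA experiments, none of which used the NC libraries of the 8C 4KD embryos as controls. The spread, though, came from fits that also held the 8C libraries of the 4KD experiment. The calls therefore share part of their spread with the choice of the genes, and the shares below are not independent of it. In 8C embryos with the *Nr5a2* siRNAs alone, 412 of the 436 lower genes were tested and 257 of these (62.4%) passed the same limits in the same direction, beside 10.9% of all genes tested there, and 2 passed them in the opposite direction. Their median log2 fold change was -1.45, beside -0.24 over all genes tested there. Of 267 higher genes tested there, 88 (33.0%) were higher, beside 3.17%. The 257 genes were 25.0% of the 1028 lower genes of the *Nr5a2* KD, and the 88 were 29.5% of its 298 higher genes. Across 6065 genes with a mean of at least 5 FPKM in an 8C group of the 4KD experiment, the log2 fold changes of the 2 experiments had a Pearson correlation of 0.66 and a Spearman correlation of 0.63, as a description across genes, which are not independent replicates.

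In 3KD embryos that kept *Nr5a2* (siRNAs against *Rarg*, *Nr1h3* and *Nr2c2*) few of the genes passed. Of 418 lower genes tested there, 13 were lower (3.11%, beside 1.14%) and 20 were higher (2.46% of all genes were), and of 235 higher genes 5 were higher (2.13%). Their median log2 fold changes were 0.16 for the lower and 0.10 for the higher genes, beside 0.15 over all genes tested there, and the correlation across 6057 genes was 0.02 (Pearson) and 0.00 (Spearman). The 3 other 3KD groups, each with *Nr5a2* siRNAs, had shares of 42.6% (*Rarg* spared), 38.2% (*Nr1h3* spared) and 37.1% (*Nr2c2* spared) of the lower genes, beside 4.17%, 4.17% and 3.83% of all genes tested. Of the higher genes they had 35.6%, 32.1% and 39.8%, beside 4.53%, 5.52% and 6.25%. These 4 3KD groups share their NC libraries.

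Single KDs of the other receptors gave smaller shares of the genes than the *Nr5a2* KD, each above the share of all genes tested there. Pearson correlations with the 4KD across genes were 0.20 for *Rarg*, 0.14 for *Nr1h3* and 0.16 for *Nr2c2*. With *Rarg* siRNAs alone, 13 of 421 lower genes were lower (3.09%, beside 1.11%) and 9 of 239 higher genes were higher (3.77%, beside 1.26%). With *Nr1h3* siRNAs alone, the counts were 7 of 415 (1.69%, beside 0.812%) and 6 of 222 (2.70%, beside 0.897%). With *Nr2c2* siRNAs alone, they were 38 of 412 (9.22%, beside 2.16%) and 9 of 227 (3.96%, beside 0.556%). The 4 single KDs share their NC libraries. At 4C, in the earlier embryos of the 4KD experiment, 98 of 380 lower genes were already lower (25.8%, beside 3.59%) and 45 of 272 higher genes already higher (16.5%, beside 2.29%).

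**Figure D5:**
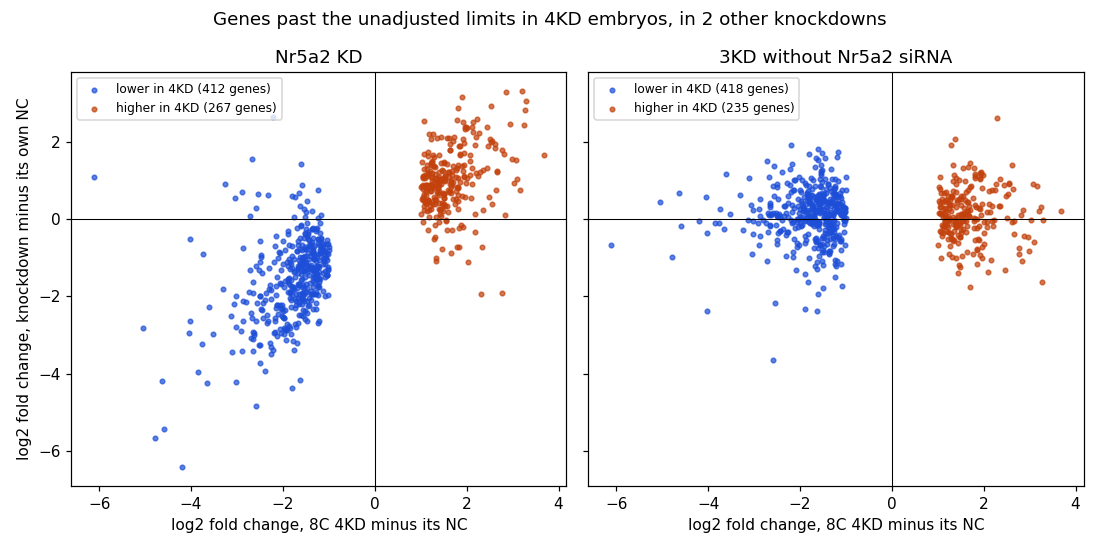
Log2 fold change in *Nr5a2* KD embryos (left) and in 3KD embryos without *Nr5a2* siRNA (right), each against its own NC (vertical axes), for the lower (blue) and higher (orange) genes of 8C 4KD embryos by their log2 fold change there (horizontal axes). On the left most blue points lie below 0 and most orange points above it; on the right the medians are 0.16 and 0.10, beside 0.15 over all genes tested there.

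Some of the named genes, picked by no set rule, are compared next in these 2 other experiments. *Khdc3* was at 320.3 and 264 FPKM in its NC libraries and at 2.14 and 2.67 FPKM in its KD libraries in the *Nr5a2* single KD (log2 fold change -6.43), and at 96.00 and 152 FPKM in its NC libraries and at 91.8 and 149 FPKM in its KD libraries in the 3KD that kept *Nr5a2* (log2 fold change -0.04). *Psme1* was at 69.5 and 103 FPKM in its NC libraries and at 2.88 and 0 FPKM in its KD libraries in the *Nr5a2* single KD and at 68.8 and 131 FPKM in its NC libraries and at 68.9 and 104 FPKM in its KD libraries in that 3KD. *Nanog* was at 15.2 and 19.4 FPKM in its NC libraries and at 1.04 and 1.09 FPKM in its KD libraries in the single KD and at 15.7 and 13.7 FPKM in its NC libraries and at 14.4 and 24.7 FPKM in its KD libraries in that 3KD. For these 3 genes the groups were apart in the single KD and overlapped in the 3KD. *Upp1*, a higher gene, was at 0.394 and 3.04 FPKM in its NC libraries and at 32.7 and 16.01 FPKM in its KD libraries in the single KD and at 2.94 and 3.41 FPKM in its NC libraries and at 4.10 and 3.51 FPKM in its KD libraries in that 3KD. *Rhox9* behaved otherwise: its log2 fold change was -0.52 in the *Nr5a2* single KD (unadjusted p = 0.606) and -2.37 in the 3KD that kept *Nr5a2* (unadjusted p = 0.0277), where it was at 17.5 and 27.01 FPKM in its NC libraries and at 4.79 and 2.34 FPKM in its KD libraries. *Ndufs6* had log2 fold changes of -0.30 and -1.42 in these 2 groups (unadjusted p = 0.515 and 0.00540).

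The differences between experiments were tested as interactions with limma. Total siRNA differed between the 4KD and the other knockdowns along with the targets, and these cannot be told apart here. Between the 4KD and the *Nr5a2* single KD, none of 10181 genes (0%) had an adjusted p under 0.05 (smallest 0.487), and 242 had an unadjusted p under 0.05. The smallest p was that of the small RNA *Scarna6* (unadjusted p = 4.78e-05). It was followed by *Msantd4*, whose log2 fold change was -2.54 in 4KD and 0.65 in *Nr5a2* KD embryos (difference -3.18, SE 0.69, unadjusted p = 0.000181, adjusted p = 0.601). The siRNA target *Nr1h3* was among the first 8, with a difference of -2.89 (SE 0.78, unadjusted p = 0.00153, adjusted p = 0.999).

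Between the 4KD and the 3KD that kept *Nr5a2*, none of 10259 genes (0%) had an adjusted p under 0.05, but the smallest adjusted p was 0.0844 and 726 genes had an unadjusted p under 0.05, 508 of them on the lower side in 4KD embryos. The 8 genes with the smallest p among those of at least 5 FPKM shared that adjusted p, and all were lower in the 4KD. *Agpat9*, an enzyme of triglyceride synthesis, was at 61.3 and 64.7 FPKM in the NC libraries and at 10.6 and 8.27 FPKM in the 4KD libraries, and its log2 fold change was -2.63 in 4KD and 0.12 in the 3KD embryos (difference -2.74, SE 0.51). *Tdh* had a difference of -3.68 (SE 0.71), *Abhd11os* one of -5.33 (SE 1.07) and *Slc43a3*, a purine transporter gene, one of -3.17 (SE 0.61). *Creg1*, a lysosomal glycoprotein gene, was at 41.03 and 25.5 FPKM in the NC libraries and at 2.41 and 3.98 FPKM in the 4KD libraries (difference -3.26, SE 0.64). *Rffl*, a ubiquitin ligase gene, was at 13.3 and 18.7 FPKM in the NC libraries and at 0.873 and 1.79 FPKM in the 4KD libraries (difference -2.97, SE 0.58). *Tex264*, a receptor of endoplasmic reticulum autophagy, had a difference of -4.17 (SE 0.84) and *1700019M22Rik* one of -4.12 (SE 0.82).

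Between 8C and 4C embryos of the 4KD experiment, none of 10476 genes (0%) differed in its response at an adjusted p under 0.05 (smallest 1.00), and 259 had an unadjusted p under 0.05. The smallest p was that of *Gm7367*, a predicted gene, with log2 fold changes of 2.33 at 4C and -2.90 at 8C (difference -5.23, SE 0.88, unadjusted p = 0.000200). *Tcstv1*, the 2-cell burst gene named above, had a log2 fold change of -2.82 at 4C and 1.84 at 8C (difference 4.67, SE 0.95, unadjusted p = 0.000739). *Duxbl1*, a double homeobox gene, had a difference of 3.88 (SE 0.74, unadjusted p = 0.000457) and *Srgn*, which encodes the proteoglycan serglycin, one of 3.34 (SE 0.74, unadjusted p = 0.00132). At 8C *Srgn* was close to 0 in both groups, at 0 and 0 FPKM in NC against 0 and 0.856 FPKM in 4KD libraries. *Psme1* had log2 fold changes of -3.00 at 4C and -4.59 at 8C, *Khdc3* -3.70 and -4.20, *Klf5* -0.22 and -1.82, and *Dkk1* 0.82 and 3.68.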

How the data were processed

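The deposited files hold 1 FPKM value per gene and library; per the study's methods, the authors aligned Smart-seq2 reads to mm9 with TopHat and computed FPKM with Cufflinks, and no read counts were used here. The submitters' processing notes for these samples list Bowtie2 and MACS instead, with no role given, and the difference could not be settled. log2(FPKM + 1) was compared with limma 3.58.1 in R 4.3.3 (eBayes with a trend, Benjamini-Hochberg adjustment) over genes with a mean of at least 1 FPKM in an 8C group. The fit held the 8 4C and 8C libraries of the experiment; comparisons with other knockdowns used the 24 siRNA libraries of 8C embryos. Lower and higher genes had an unadjusted p below 0.05 with a log2 change of 1 or more in that direction. Fold changes on this scale understate changes of low genes. An exact permutation test of 2 against 2 libraries cannot go below p = 0.333. Named genes were the targets and paralogs, genes the study names, the 15 leading genes in each direction (unadjusted p under 0.05, groups apart, at least 5 FPKM), up to 6 members of each list and up to 8 genes of each interaction; the stage examples, the genes of the closing section and partner or marker genes such as *Psme2* and *Abhd11* were named after their values were seen. The members and lists were chosen with earlier results of these data known. The procedure was tested on simulated data, with large known changes placed only in well-expressed genes of small spread. That test does not speak to low genes or to genes with a wide spread between replicates.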

Additional observations from a re-analysis of the deposited data

How the results depend on the processing

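Lower genes numbered 292 to 585 and higher genes 185 to 447 over 14 alternative settings, beside 436 and 312. Requiring at least 5 FPKM left 185 higher genes among 6077 tested. Genes past the adjusted limits stayed at 0 except with the spread of all 24 8C siRNA libraries, which gave 16. For the 4KD against the *Nr5a2* single KD, the count at an adjusted p under 0.05 became 7 without a filter on low values, and 0 to 2 when 1 library was left out. For the 4KD against the 3KD that kept *Nr5a2*, it became 11 with a pseudocount of 0.1, 9 without a filter, and 0 to 4 when 1 library was left out. Leaving out 1 library gave 305 to 452 lower and 232 to 353 higher genes, and 0 past the adjusted limits. The cause was not tested.

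All 30 leading genes kept their direction under the 14 settings. The rule that chose them largely fixed this, since groups that do not overlap keep their order when 1 library is left out. The same rule had put these genes past the unadjusted limits. Of 84 listed or named genes past these limits, 37 stayed past them whichever library was left out.

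Same-numbered NC and 4KD libraries deviated together at 8C (r = 0.46 across 6077 genes), but the labels do not say that the number marks a shared day, and across stages the numbers deviated oppositely (r from -0.40 to -0.36). With the replicate number as a block there were 389 lower and 283 higher genes and none past the adjusted limits; a block within each stage, chosen after seeing the data, gave 585 and 447.

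With 2 libraries a group and no counts, depth is known only in relative terms, and silence cannot be told apart from a failed estimate where a gene is listed at 0.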

Other observations

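Further genes reached an adjusted p under 0.05 when limma took the spread from all 24 siRNA libraries of 8C embryos; they are named after their values were seen. *Cd9*, a tetraspanin of the egg surface, was at 870.2 and 794 FPKM in the NC libraries and at 218 and 196 FPKM in the 4KD libraries. *Cd9* had a log2 fold change of -2.002 (adjusted p = 0.0136 in that fit). *Fkbp8*, a mitochondrial immunophilin gene, was at 51.3 and 52.3 FPKM in the NC libraries and at 5.69 and 6.35 FPKM in the 4KD libraries. *Fkbp8* had a log2 fold change of -2.91 (adjusted p = 0.0112). *Mpc1*, a subunit of the mitochondrial pyruvate carrier, was at 322 and 166 FPKM in the NC libraries and at 65.5 and 46.2 FPKM in the 4KD libraries. *Mpc1* had an adjusted p of 0.0365. *Fdx1*, the ferredoxin of steroid synthesis, was at 37.5 and 35.03 FPKM in the NC libraries and at 7.02 and 3.15 FPKM in the 4KD libraries. *Fdx1* had an adjusted p of 0.0136. Each of these had both 4KD libraries below both NC libraries.

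A pair of autophagy genes was among them: *Atg4b*, a protease of LC3, was at 115 and 109 FPKM in the NC libraries and at 30.9 and 26.1 FPKM in the 4KD libraries. *Atg4b* had an adjusted p of 0.0100. *Tex264* was at 27.7 and 26.1 FPKM in the NC libraries and at 0.862 and 4.68 FPKM in the 4KD libraries. *Tex264* had an adjusted p of 0.0182. *Hsd17b1*, a steroid dehydrogenase gene, was at 9.54 and 5.28 FPKM in the NC libraries and at 0 and 0 FPKM in the 4KD libraries. *Hsd17b1* had an adjusted p of 0.0267. *Gulo*, the last enzyme of vitamin C synthesis, was at 141 and 279 FPKM in the NC libraries and at 48.3 and 72.01 FPKM in the 4KD libraries. *Gulo* had an adjusted p of 0.0461. On the higher side, *Plekhb2* was at 2.82 and 6.16 FPKM in the NC libraries and at 25.4 and 29.5 FPKM in the 4KD libraries. *Plekhb2* had an adjusted p of 0.0276. *Lxn*, a carboxypeptidase inhibitor gene, was at 0 and 0.610 FPKM in the NC libraries and at 3.56 and 6.94 FPKM in the 4KD libraries. *Lxn* had an adjusted p of 0.0362. In the fit of the 4KD experiment alone the adjusted p-values of these genes were above 0.05.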
